A study of Mus musculus with 2 samples.

Results

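The cytosolic ribosomal protein genes were examined in leukocytes sorted from mouse tumours. They were chosen by symbol: Rpl or Rps followed by a digit, together with Rplp0, Rplp1, Rplp2 and Rpsa. Pseudogene symbols with "-ps" and the Rps6k kinase genes were left out, and 50 UMIs over both libraries were required. Of 32285 genes, 86 symbols met the name rule and 85 passed the count minimum. Rpl10l, a retrocopy of Rpl10, had 0 UMIs and was the exception. The 85 members were 43 proteins of the large subunit, 31 of the small subunit, 3 proteins of the ribosomal stalk and 7 paralogs or retrocopies. The remaining member, Rps19bp1, meets the name rule but encodes a binding partner of a ribosomal protein, not a subunit.

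Ribosomal proteins surround the ribosomal RNA and are made in near-equal numbers, because each ribosome holds 1 copy of most of them. Many of their mRNAs begin with a terminal oligopyrimidine (TOP) motif, a C at the first base followed by a run of C and T, through which mTOR signalling controls their translation. In leukocytes they make up a large share of the mRNA, and resting lymphocytes are rich in them while mature neutrophils are poor in them. Several members have paralogs with restricted expression, such as the muscle protein Rpl3l in mouse.

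Both groups carried subcutaneous tumours of B16F10-OVA, mouse melanoma cells that make the model antigen ovalbumin. The PBS group received injections of saline buffer and the other group injections of UDSP-Hep, an agent that the labels name without describing, on days 10, 12, 14 and 16. On day 19, 3 tumours per group were pooled, CD45+ cells were sorted with a PE-labelled antibody, and about 10000 cells per group were loaded for 10x Genomics droplet sequencing. Age, sex and strain of the mice are not given in the sources used here, and cells could not be assigned to single tumours here. Each group was therefore 1 library. No difference between the groups therefore has a replicate check and none was tested. The treatment and the library cannot be told apart. In each pair of values the PBS library comes first, ratios are UDSP-Hep over PBS, and the 95% intervals reflect counting error alone.

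The libraries held 7379 and 7872 barcodes with 74685827 and 64241224 UMIs, a UMI being a tag that marks 1 captured RNA molecule. After filtering, 6717 and 7194 cells remained, with medians of 7874 and 5483 UMIs per cell, and 25 barcode sequences occurred in both libraries. Cells were placed in 16 marker-gated classes, 11 of which had at least 50 cells in each library. A further 4 had at least 20 cells in each and are given as levels only. No gate took 21.4% and 21.6% of cells. Ptprc, which encodes CD45, was between 353 and 2901 CPM (UMIs scaled to 1e6 UMIs of the class) in the 15 PBS classes, and between 494 and 3142 CPM in the UDSP-Hep ones. Markers of melanoma cells reached at most 22.9 and 15.8 CPM summed, and those of fibroblasts at most 1.83 and 2.18 CPM. The endothelial list, whose Pecam1 is also made by leukocytes, had medians of 71.1 and 69.1 CPM and reached 401 and 461 CPM, in pDC.

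The start sites of the members are where the TOP motif would lie, and they are shown because this motif is what the class of mRNAs is known for. RefSeq promoter windows on GRCm38.p6 were found for 65 of the 85 members. A C at the annotated start followed by at least 4 pyrimidines on the gene's strand was present in 14 of the 65 (21.5%) and in 813 of 27025 genes with a window (3.01%). The motif was searched at the annotated start only, so a start annotated a few bases away would be missed. A run of at least 8 pyrimidines touching the 5 bases on either side of the start was present in 24 of the 65 (36.9%) and in 11.4% of all genes. Such a match is a description of letters, not of use. In the following windows of 10 bases before and 15 bases from the start, read 5′ to 3′ on the gene's strand, capitals mark the C and the pyrimidines that follow it. They belong to Rps27 at chr3:90213634-90213658 on the minus strand, Rps18 at chr17:33955651-33955675 on the minus strand, Rps15a at chr7:118116133-118116157 on the minus strand, Rpl28 at chr7:4792955-4792979 on the plus strand and Rplp2 at chr7:141447641-141447665 on the plus strand. All 5 belong to members described with their values in the paragraphs on the subunits, the stalk or the neutrophils. They were picked because they match. Other members described there, among them Rpl37a, Rpl41, Rps28, Rpl10a, Rpl10 and Rplp0, have no such run at the annotated start.
Rps27: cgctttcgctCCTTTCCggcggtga
Rps18: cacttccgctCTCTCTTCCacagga
Rps15a: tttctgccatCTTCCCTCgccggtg
Rpl28: tctcgtgtctCTCTTTCCgtctccg
Rplp2: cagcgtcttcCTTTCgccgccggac

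The members together took 16.8% of UMIs after PBS and 15.1% after UDSP-Hep, but the level depended far more on the class of cell than on the library. These pooled values also carry the mix of classes. NK cells were 6.48% and 20.2% of kept cells and neutrophils 0.372% and 5.99%. Gamma-delta T cells, with 23.7% and 22.1%, and CD8 T cells, with 23.5% and 22.1%, had the highest shares. B cells held 21.5% and 21.3%, other CD4 T cells 19.9% and 17.7%, and NK cells 19.3% and 17.1%. CD8 T, gamma-delta T and B cells were thus the 3 highest classes in both libraries, while Treg cells were far lower at 15.2% and 14.5%.

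Among dendritic cells, cDC1 had 19.2% and 19.3%, cDC2 18.1% and 17.5%, pDC 18.3% and 16.9%, and mature DC, which have taken up a migratory programme, 15.5% and 14.1%. Classical monocytes had 15.2% and 13.9%, nonclassical monocytes 16.1% and 14.5%, and macrophages 14.9% and 12.4%. Granulocytes were lowest. Basophils had 9.77% and 9.06%, and neutrophils had 2.89% (2.75 to 3.02%) and 2.56% (2.53 to 2.59%). The neutrophil values come from 25 and 431 cells with medians of 2275 and 2333 UMIs. Eosinophils were gated in the UDSP-Hep library only, where 26 cells had 5.40%. Cells of a class spread widely around these pooled shares: the lower and upper quartiles of CD8 T cells were 19.5% and 27.5% after PBS, and 17.1% and 26.9% after UDSP-Hep. The ranges between these quartiles overlapped in each of the 11 classes with at least 50 cells per library.

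**Figure D1:**
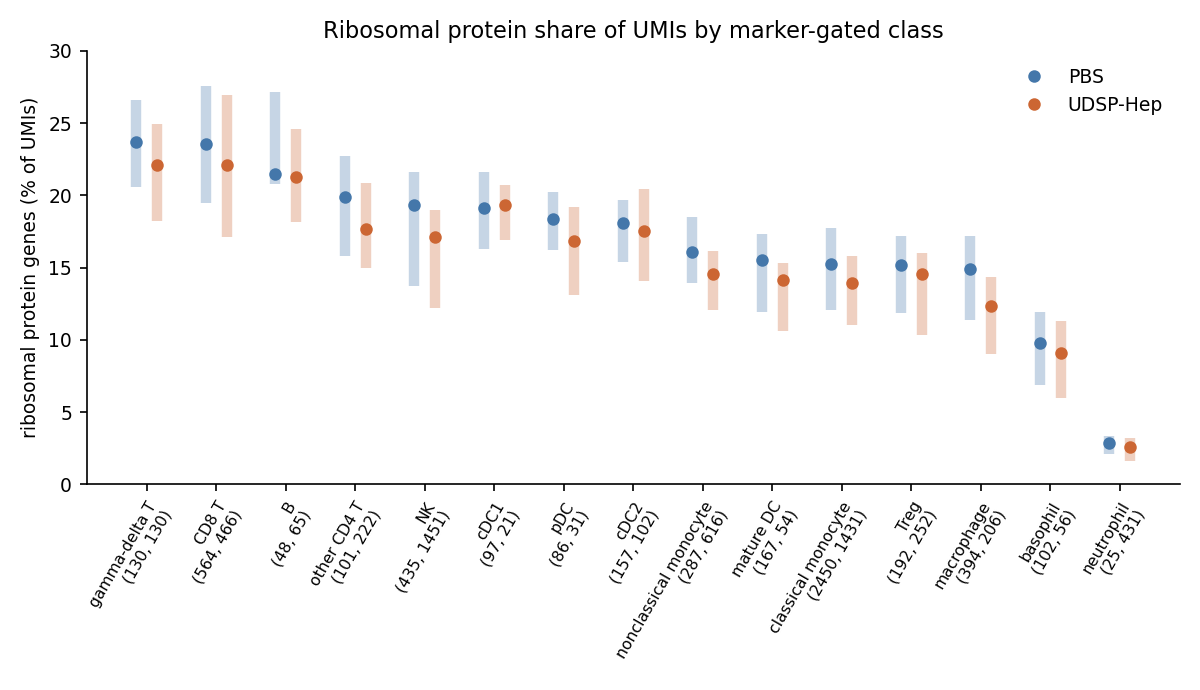
Share of UMIs from the 85 ribosomal protein genes (y axis, percent) in 15 marker-gated classes, with the number of PBS and UDSP-Hep cells in brackets. Points are pooled shares and bars the range from the lower to the upper quartile of cells; shares are 23.7% and 22.1% in gamma-delta T cells, for CD8 T cells 23.5% and 22.1%, and for neutrophils 2.89% and 2.56%.

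The comparison between the libraries asks whether the ribosomal protein share of like cells differed after UDSP-Hep. In each of the 11 classes with at least 50 cells per library, the share was lower in the UDSP-Hep library, with ratios from 0.830 to 0.966. Macrophages had the lowest ratio, 0.830 (0.827 to 0.833), followed by NK cells with 0.887 (0.884 to 0.890) and other CD4 T cells with 0.889 (0.883 to 0.895). Nonclassical monocytes had 0.904, mature DC 0.912, classical monocytes 0.916 and basophils 0.928. Gamma-delta T cells had 0.934, CD8 T cells 0.939, Treg 0.956 and cDC2 0.966 (0.962 to 0.971). None of the 11 intervals included 1, but these intervals hold only counting error, and the 11 ratios share the same pair of libraries and are not independent.

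Both subunits were lower. Large subunit genes had ratios from 0.809 to 0.955 and small subunit genes from 0.845 to 0.974, below 1 in all 11 classes for both. By the median cell of each class the UDSP-Hep value was lower in 10 of 11 classes; in cDC2 it was 17.0% and 17.3%. When cells with a UMI of Hspa1a or Hspa1b, the stress-induced HSP70 genes, were left out, 10 of 11 classes had a ratio below 1 and cDC2 stood at 1.03. Each of the 11 classes had less HSP70 after UDSP-Hep, with 0.0314 to 0.274% of UMIs for PBS and 0.00414 to 0.0218% for UDSP-Hep. Their part in the ratios was not tested beyond leaving out these cells.

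Depth and cycling also differed between the libraries. The member share varied with depth: PBS classical monocytes had 12.5% at 2000 to 3999 UMIs and 16.2% at 16000 UMIs and more. Within bins of equal depth, in the 6 classes binned, the UDSP-Hep share was lower in 20 of 23 bins. Cycling CD8 T cells, those with a UMI of Mki67, Top2a, Cdk1, Ccnb1, Birc5 or Pclaf, were 51.2% of the PBS class and 23.4% of the UDSP-Hep class. A single UMI sufficed, so the call depends on depth, and CD8 T cells had medians of 8343 and 5630.5 UMIs. The split by such a UMI was not matched for depth. Among CD8 T cells without such a UMI the shares were 25% and 22.6%, and among those with one 23.0% and 21.4%. Across classes, in all 18 groups split this way with values in both libraries, the UDSP-Hep share was lower.

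Neutrophil marker RNA was higher in the UDSP-Hep library in all 14 other classes. The 7 markers, among them S100a8 and S100a9, summed to a median of 13.5 CPM over these classes after PBS and 130 CPM after UDSP-Hep. Macrophages had 74.0 and 1125 CPM, the latter 2.36% of the level in UDSP-Hep neutrophils, NK cells 5.95 and 202 CPM, mature DC 6.66 and 151 CPM and other CD4 T cells 9.04 and 109 CPM. Neutrophils themselves had the lowest member share. Without cells that held a UMI of any of these markers, the member share was lower in UDSP-Hep in all 11 classes. The ratio was then 0.883 in macrophages, from 189 and 55 cells, 0.889 in NK cells and 0.920 in other CD4 T cells. In mature DC it was 0.880, from 154 and 32 cells, and basophils were left with 49 and 21 cells. Both of these classes were then under the minimum of 50 cells per library. The remaining cells were not matched for depth. Classical monocytes, with 327 and 357 CPM of the markers, kept 906 of 2450 and 363 of 1431 cells. Whether marker UMIs in a class came from its own cells or from neutrophils was not tested. A further part of neutrophil RNA in the ratios was not tested.

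Individual members differed little between the libraries, and most in the direction of the group. A gene was counted as past the fold when its CPM differed at least 1.5-fold between the libraries in a class, among genes with at least 50 UMIs there. Over the 11 classes 81 to 84 of the 85 members reached that minimum, giving 911 values. None was past 1.5-fold higher and 14 were past 1.5-fold lower; 755 ratios were below 1 and 156 above it. The median member had a log2 ratio between -0.29 in macrophages and -0.09 in cDC2, against 0.01 to 0.13 for the median of all genes tested. Genes called lower in the same comparison made up 8.38% of all genes in CD8 T cells, 4.56% in other CD4 T cells, 4.49% in gamma-delta T cells, 3.43% in NK cells and 6.53% in mature DC. They made up 3.6% in classical monocytes, 5.52% in macrophages, 6.85% in basophils, 4.25% in Treg, 4.37% in cDC2 and 2.29% in nonclassical monocytes. Of the members, 1 of 83 was called lower in CD8 T cells, 1 of 82 in other CD4 T cells, 3 of 82 in gamma-delta T cells, 1 of 83 in NK cells and 2 of 83 in mature DC. It was 1 of 84 in classical monocytes, 4 of 83 in macrophages, 1 of 81 in basophils and 0 in Treg, cDC2 and nonclassical monocytes. Genes called higher made up 12.6% of all genes in CD8 T cells, 6.33% in Treg, 10.8% in other CD4 T cells, 7.27% in gamma-delta T cells, 8.8% in NK cells, 6.37% in cDC2 and 13.2% in mature DC. They made up 7.88% in classical monocytes, 8.38% in nonclassical monocytes, 9.91% in macrophages and 11.1% in basophils. Over all kept cells, where 5.81% of genes were called lower and 11% higher, 2 of the 85 members were called lower and 1, Rpl3l, higher. These pooled calls carry the mix of classes too, nonclassical monocytes being 4.27% and 8.56% of kept cells. The called share of members was below that of all genes in all 11 classes, but the genes were not matched for UMI counts. Most members have counts well above the 50 UMI minimum, and counting error alone moves ratios more for genes near it. The lower called share is therefore not read as a property of the members. The 14 calls became 24 when ratios were taken relative to the median gene, 29 in cells of 2000 to 10000 UMIs and 26 in cells without neutrophil marker UMIs.

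**Figure D2:**
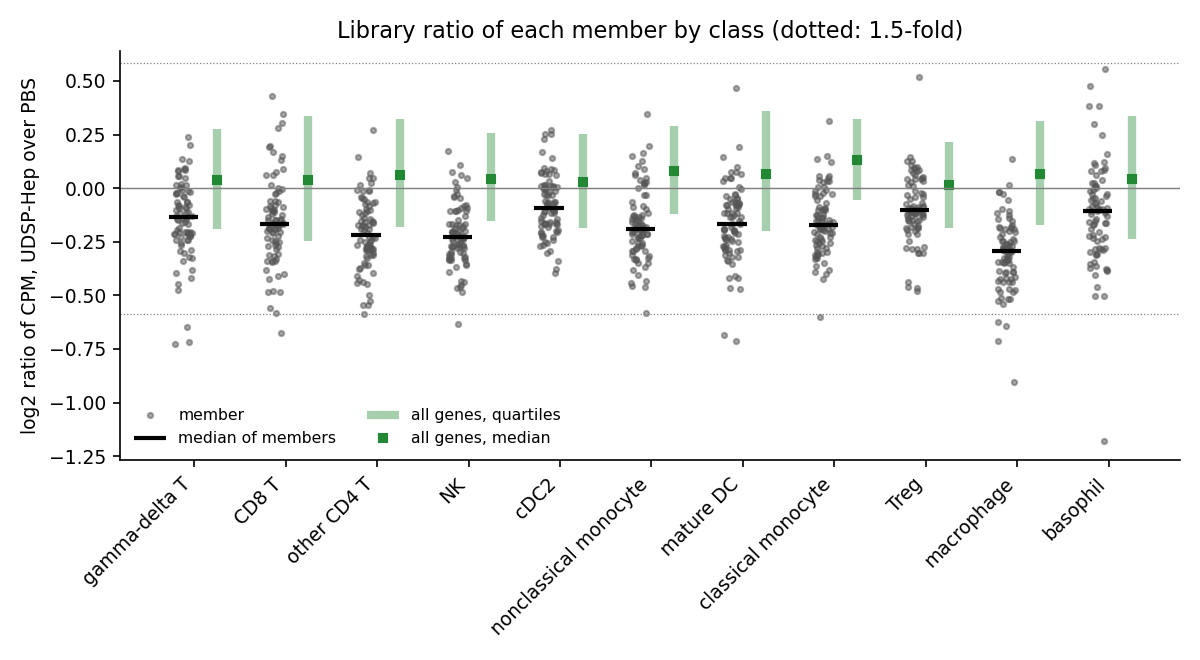
Log2 ratio of CPM, UDSP-Hep over PBS (y axis), of each member (grey points, black bar at the median) and of all genes tested (green square at the median, bar over the quartiles) in 11 classes. Dotted lines mark 1.5-fold; the median of the members lies between -0.29 and -0.09 and that of all genes between 0.01 and 0.13.

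In the large subunit, Rpl29, a small basic protein at the surface of the subunit, had the lowest ratios of the 77 subunit and stalk genes. It had 1256 and 786 CPM in CD8 T cells, a ratio of 0.626 (0.600 to 0.653), and 994 and 531 CPM in macrophages, a ratio of 0.534 (0.506 to 0.564). In NK cells it had 1012 and 651 CPM, and in classical monocytes 910 and 599 CPM. Rpl29 was below 1 in all 11 classes, with a highest ratio of 0.771 in cDC2, and it accounted for 7 of the 14 calls. Rpl10a and Rpl10, a pair of unrelated proteins of which Rpl10 joins the subunit late and lies near the P site, were also lower in every class. Rpl10a had ratios from 0.640 to 0.898 and Rpl10 from 0.694 to 0.890. Rpl32 ranged from 0.699 to 0.890 and Rpl13 from 0.720 to 0.896. On the other side stood Rpl37a, a small zinc-binding protein, with 5940 and 7545 CPM in CD8 T cells, a ratio of 1.27 (1.251 to 1.29). It was above 1 in 10 of 11 classes and 0.988 in macrophages. Without cycling cells the CD8 T ratio was 1.10. Rpl41, a very short peptide, had ratios from 0.904 to 1.15 and Rpl8 from 0.900 to 1.08.

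In the small subunit, Rps28 was the only member with a higher level in UDSP-Hep in all 11 classes, among the 81 members tested in each of them. It had 4017 and 4954 CPM in CD8 T cells, 2982 and 3365 CPM in NK cells and 3101 and 3137 CPM in macrophages. Its ratios ran from 1.01 in macrophages, whose interval of 0.987 to 1.04 included 1, to 1.39 in basophils. In macrophages of 2000 to 10000 UMIs it was 0.937. Rps27, another zinc-binding protein of the small subunit, had 3877 and 5229 CPM in CD8 T cells, a ratio of 1.35 (1.32 to 1.37), and 0.877 in basophils. Without cycling cells the Rps27 ratio in CD8 T cells was 1.05, and in cells of 2000 to 10000 UMIs it was 1.10. Rps29 had ratios from 0.988 to 1.12. Lower in UDSP-Hep were Rps15a, with 4004 and 2678 CPM in CD8 T cells and ratios from 0.669 to 0.856, and Rps18, with ratios from 0.609 in macrophages to 1.06 in basophils. Altogether 40 of the 81 members were below 1 in every class. In GENCODE M21, exons of 13 members overlap those of a protein-coding gene on the other strand, among them Rps28 with Kank3, Rps18 with Vps52, Rpl32 with Cand2 and Rpl12 with Lrsam1. The sources used here do not say whether counting used strand, and without it the reads of such genes cannot be told apart.

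The stalk is the arm through which elongation factors reach the ribosome, and its members did not share a direction. Rplp0, its base, was below 1 in all 11 classes with ratios from 0.804 in CD8 T cells to 0.985 in Treg. Rplp1 and Rplp2, the acidic proteins that dimerise on it, were above 1 in 8 of 11 classes each, with ratios of 0.936 to 1.11 for Rplp1 and 0.869 to 1.11 for Rplp2. Rplp0 in CD8 T cells had 2969 and 2387 CPM while Rplp1 had 5697 and 6235 CPM and Rplp2 4439 and 4930 CPM. Without cycling cells the CD8 T ratio was 0.989 for Rplp1, 1.04 for Rplp2 and 0.870 for Rplp0. UMIs are not scaled for transcript length here, so the levels are compared between libraries and not between genes.

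Expressed as a share of the members' own UMIs, which takes out the level of the whole module, 10 members were higher in UDSP-Hep in every one of the 11 classes and 19 were lower in every one. The 10 were Rps28, Rpl37a, Rps21, Rplp1, Rps29, Rplp2, Rpl37, Rps15, Rpl8 and Rpl39. Of these 10, Rps28 had the highest ratios, from 1.14 to 1.5, followed by Rpl37a with 1.09 to 1.35. Rps27 was higher in 10 of 11 classes. The 19 lower ones were led by Rpl29, with ratios of 0.644 to 0.798, and included Rps13, Rpl32, Rpl13, Rpl34, Rpl26 and Rps15a. The shifts of the classes come from the same pair of libraries and share any difference in library preparation, which cannot be told apart from the treatment. In cells of 2000 to 10000 UMIs the numbers were 7 and 11, and in cells without cycling marker UMIs 11 and 17.

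**Figure D3:**
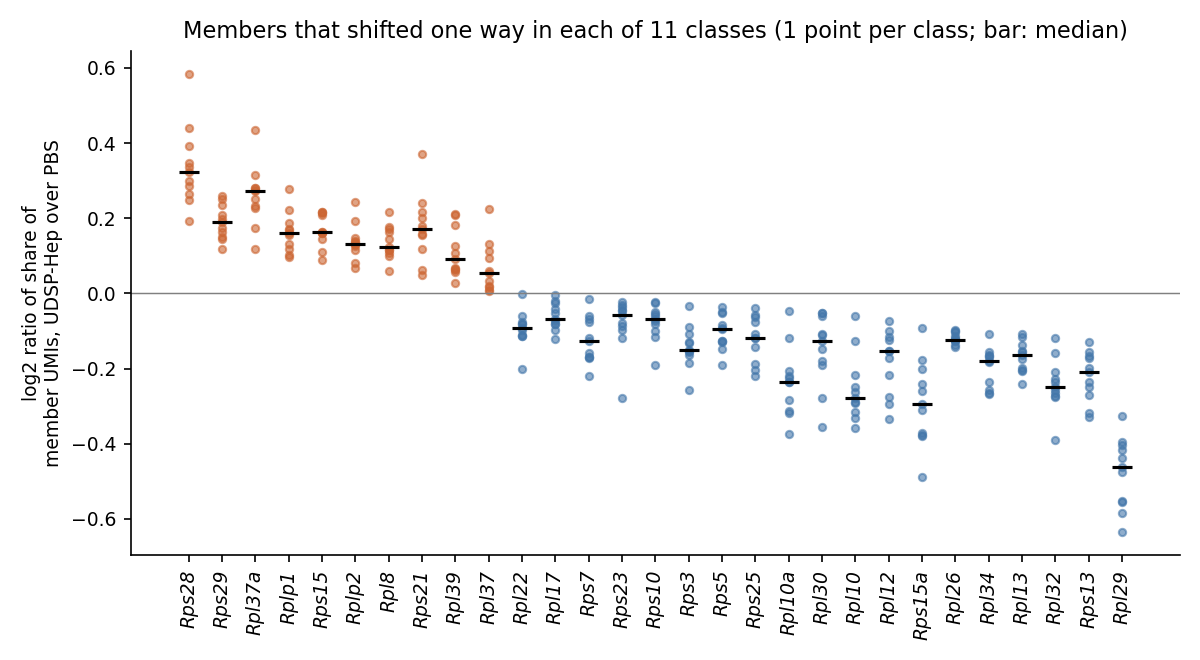
Log2 ratio of each member's share of all member UMIs, UDSP-Hep over PBS (y axis), for the 10 members higher (orange) and the 19 lower (blue) in every one of 11 classes. Each point is 1 class and bars are medians over classes; Rps28 has ratios of 1.14 to 1.5 and Rpl29 of 0.644 to 0.798.

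Transcript length, taken from a single annotated transcript per gene, had a median of 499.5 bases in the 10 members that gained within the module. The median was 640 for the 19 that lost and 729 for all 77 subunit and stalk members. The 10 ran from 271 to 851 bases, and Rpl37 with 835 and Rpl8 with 851 were above the median of the 77. GC content was alike in these groups, with medians of 52.9%, 50.7% and 51.8%. Across the 77 genes, Spearman's rho between the within-module ratio and transcript length lay between -0.29 and -0.01 over the 11 classes, and that with the gene's UMI total between -0.01 and 0.55. Genes are not independent replicates and these coefficients describe a pair of libraries only.  Whether length or abundance has a part in the shift was not tested.

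The makeup of the module also differed between cell classes in both libraries. Of the 78 members with at least 50 UMIs in every class and library, 5 varied at least 2-fold in their share of member UMIs across the 11 classes in both libraries, where the median member varied by 0.45 on the log2 scale. Rpsa, the laminin receptor precursor and a small subunit protein, was highest in Treg with 2.25% and 2.46% of member UMIs and lowest in basophils with 0.870% and 0.932%. Rps19, the protein most often mutated in human Diamond-Blackfan anaemia, was highest in mature DC with 2.5% and 2.26% and lowest in NK cells with 1.04% and 1.04%. As CPM it had 3866 and 3197 in mature DC, and 3185 and 3158 in CD8 T cells, so the classes were near each other in the UDSP-Hep library. Rps2 was highest in macrophages with 1.35% and 1.12% and lowest in basophils with 0.487% and 0.549%. Rpl12, which lies at the base of the stalk, was 1.26% and 1.03% in gamma-delta T cells and 0.510% and 0.484% in nonclassical monocytes. Rpl36al, the paralog of Rpl36a, was highest in classical monocytes with 0.670% and 0.596% and lowest in basophils with 0.290% and 0.292%. Which class was highest agreed between the libraries for 43 of the 78 members.

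**Figure D4:**
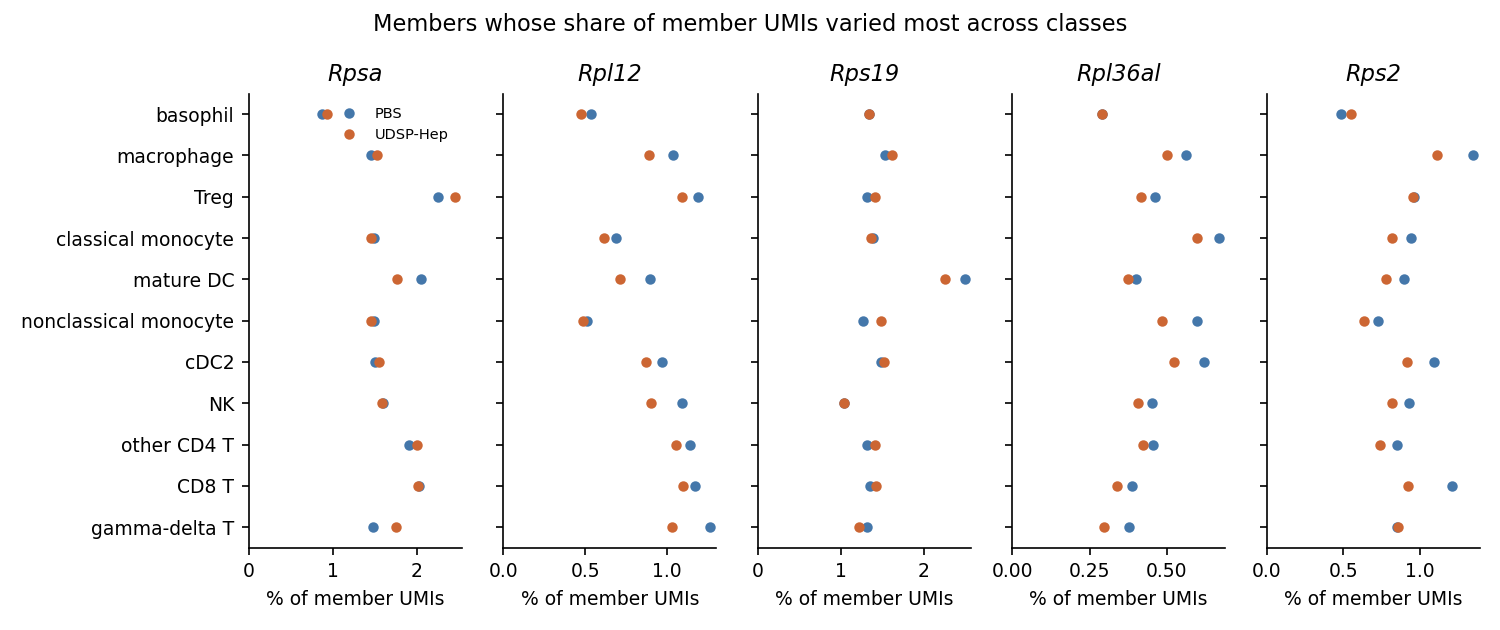
Share of member UMIs (x axes, percent) of the 5 members that varied at least 2-fold across 11 classes in both libraries. Each point is 1 class in 1 library; Rpsa peaks in Treg at 2.25% and 2.46%, Rps19 in mature DC at 2.5% and 2.26%.

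Among the paralogs, Rps27l differed widely between cell classes. It is a close relative of Rps27 and a target of p53 in mouse and human, and it lies at chr9:66946086-66949516 on the plus strand. Of the UMIs of the Rps27 and Rps27l pair, Rps27l took 33.9% (33.1 to 34.8%) and 30.3% (28.9 to 31.8%) in mature DC. It took 20.1% and 17.2% in macrophages, 17.2% and 19.4% in cDC1 and 13.2% and 9.76% in cDC2. It was lower in several lymphocyte classes, with 2.95% and 2.78% in gamma-delta T cells, 4.74% and 4.2% in NK cells and 2.41% and 2.01% in B cells. The level of Rps27l itself was 1719 and 1504 CPM in mature DC, 532 and 484 CPM in macrophages and 170 and 157 CPM in gamma-delta T cells, while Rps27 in mature DC was 3348 and 3459 CPM. The share of cells with an Rps27l UMI, after thinning each cell to 2000 UMIs, was 87.7% and 74.1% in mature DC and 11.9% and 17.6% in basophils, the lowest class of those with at least 50 cells. Without thinning these were 98.2% and 98.1%, and 25.5% and 37.5%, at median depths of 13340 and 13119 UMIs and of 4827 and 4788 UMIs. Free RNA was not estimated, so its part in the basophil shares was not tested.

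Between libraries Rps27l was a smaller part of the pair in UDSP-Hep in 10 of 11 classes, basophils being the exception with 2.09% and 3.07%. The number was 8 of 11 without cycling cells and 7 of 11 in cells of 2000 to 10000 UMIs. CD8 T cells differed most, with 8.11% (7.80 to 8.43%) and 4.47% (4.19 to 4.76%), from 342 and 245 CPM of Rps27l and 3877 and 5229 CPM of Rps27. That difference was not present in the non-cycling cells of the class: without cells that held a cycling marker UMI, Rps27l was 2.91% and 2.92% of the pair. Its CPM was then 170 and 180, a ratio of 1.06 (0.911 to 1.23). In CD8 T cells of 2000 to 10000 UMIs the part was 2.67% and 2.45%. In the cycling cells alone it was 11.3% and 7.78%. Cycling CD8 T cells had medians of 14448 and 9709 UMIs against 6075 and 4957 in the others. Classes with high Rps27l could add to such cells as doublets: macrophage markers summed to 481 and 829 CPM in cycling CD8 T cells and 363 and 1016 CPM in the others, and mature DC markers to 264 and 244 CPM against 290 and 370 CPM. The part of doublets was not tested.

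Rpl22l1 is the paralog of Rpl22, which is needed for alpha-beta T cell development in the mouse, and it took 21.6% and 19.3% of their pair in CD8 T cells. It took 24.8% and 26.0% in pDC, 13.1% and 9.17% in mature DC and 11.3% and 12.9% in basophils. The level was 486 and 373 CPM in CD8 T cells and 183 and 112 CPM in mature DC, a ratio of 0.609 (0.479 to 0.768) that was past 1.5-fold. The part of the pair taken by Rpl22l1 was lower in UDSP-Hep in 5 of 11 classes.

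Rpl36al took 62.9% and 57.7% of its pair with Rpl36a in nonclassical monocytes and 61.5% and 58.3% in classical monocytes, but 40.9% and 32.8% in gamma-delta T cells and 41.4% and 38.3% in CD8 T cells. It was a smaller part of the pair in UDSP-Hep in all 11 classes, in 9 of them among cells of 2000 to 10000 UMIs. Both monocyte classes thus held more of the paralog, relative to its parent, than these T cell classes in either library.

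**Figure D5:**
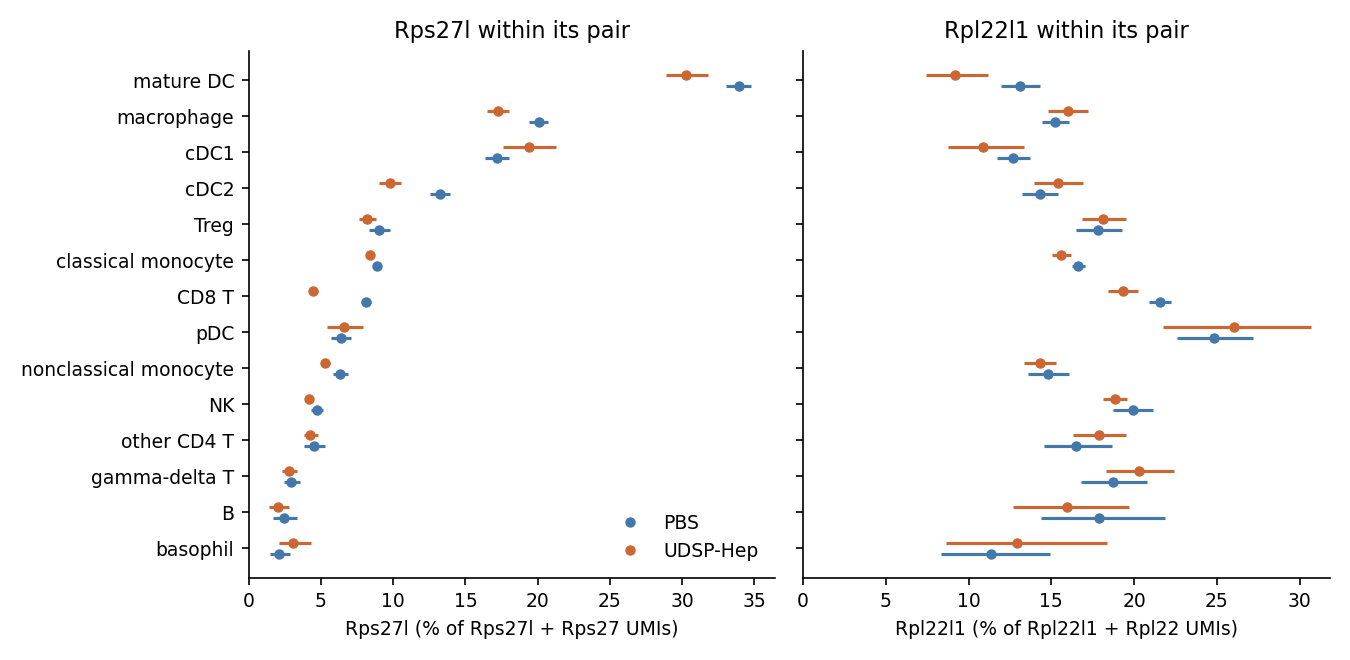
Part of a pair's UMIs (x axes, percent) taken by Rps27l (left, with Rps27) and Rpl22l1 (right, with Rpl22) in 14 classes, with exact 95% intervals for counting error. Rps27l reaches 33.9% and 30.3% in mature DC and is 2.95% and 2.78% in gamma-delta T cells.

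The 3 remaining paralogs and the retrocopy were thinly counted. Rpl3l, the muscle paralog of Rpl3, had 139 and 222 UMIs over all kept cells, and 37 and 94 of these lay in nonclassical monocytes, at 15.7 and 19.9 CPM. CD8 T cells had 0 UMIs of it among 6816179 and 3803704, which allows up to 0.440 and 0.789 CPM. Mature DC had 7.55 and 12.5 CPM from 17 and 10 UMIs, and neutrophils 16.6 and 27.9 CPM from 1 and 29 UMIs. In the 2 classes with at least 50 UMIs, both monocyte classes, the ratios were 1.24 and 1.27, with intervals that included 1. Rpl39l, the testis paralog of Rpl39 in mouse, had 124 and 67 UMIs and reached 50 in no class. Rpl7l1, a nucleolar relative of Rpl7, had 3393 and 2768 UMIs and ratios from 0.605 in gamma-delta T cells on 41 and 28 UMIs, to 1.38 in mature DC, on 84 and 41 UMIs.

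Rps27rt, a retrocopy of Rps27, had 8092 and 6180 UMIs and ratios from 0.441 in basophils, on 72 and 20 UMIs, to 1.14 in CD8 T cells. Of the 50-base runs in the last 400 bases of its transcript, 91.1% are also in Rps27, so the split of reads between the pair is uncertain. The pseudogenes left out by symbol share runs with their parents in the same way, 92.0% for Rpl10-ps3, 94.6% for Rpl9-ps6 and 71.2% for Rpl36a-ps1. The counts of Rpl10, Rpl9 and Rpl36a are therefore uncertain too, and with the last the Rpl36al part of its pair. In the last 400 bases of the transcripts, the stretch compared for every pair, no 50-base run of Rps27l, Rpl22l1, Rpl36al, Rpl39l, Rpl3l or Rpl7l1 is shared with the parent gene. The start windows of the 3 relatives of Rps27 and Rpl22 are printed for comparison with the Rps27 window above: Rps27rt at chr9:114982725-114982749 on the minus strand keeps a C-led run, marked in capitals, whereas those of Rps27l at chr9:66946076-66946100 and Rpl22l1 at chr3:28805498-28805522, both on the plus strand, have none that begins at the annotated start. By the longest pyrimidine run near the start, on either side of it, Rps27l has 9 bases, Rpl22l1 10, Rps27 9 and Rps27rt 6. These runs lie differently: that of Rps27l ends before the annotated start, that of Rpl22l1 begins after it and that of Rps27 crosses it.
Rps27rt: ttatcccttgCTTTCCggcggtgac
Rps27l: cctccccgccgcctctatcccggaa
Rpl22l1: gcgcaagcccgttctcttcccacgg

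Rps19bp1, which binds Rps19 and is not a ribosomal subunit, had 1868 and 1240 UMIs, 28.3 and 22.2 CPM over all kept cells. Macrophages had 43.2 and 34.3 CPM. Its ratio was below 1 in 4 and above 1 in 4 of the 8 classes in which it was tested, from 0.679 in CD8 T cells to 1.43 in Treg, so its direction varied between classes.

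Neutrophils were compared as levels only, since the PBS library held 25. Rps27a, a ubiquitin fusion, had 994 and 500 CPM there and Rpl9 680 and 360 CPM. By the interval bound nearest to equality both were among the 3 members furthest below the module's ratio, on 60 and 41 PBS UMIs. Rps20 had 49.7 and 188 CPM from 3 and 195 UMIs, with a counting interval of 1.27 to 18.5 around a ratio of 3.78. Rpl28 had 82.9 and 223 CPM from 5 and 232 UMIs, and Rps27l 16.6 and 97.2 CPM from 1 and 101 UMIs.

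Other gene lists of translation were set beside the members by the same ratios. Eef1a1, Eef2, Tpt1, Pabpc1 and the other TOP translation genes, 18 in all, were lower as a sum in all 11 classes, with ratios from 0.883 to 0.984. Of the 12 with a start window, 2 had a C-led run at the annotated start and 4 a run of at least 8 pyrimidines near it. The list was not named from these windows. Gene by gene the direction was mixed: 15 of 18 were below 1 in CD8 T cells and 14 of 18 in macrophages, but 9 of 18 in Treg and in gamma-delta T cells and 6 of 15 in basophils. None was past 1.5-fold lower in any of the 11 classes. In basophils 3 of 15, Eef1d, Eef1g and Pabpc1, were past it higher, against 11.1% of all genes. Pabpc4 was past it higher in other CD4 T cells and in nonclassical monocytes, 1 of 18 in each, against 10.8% and 8.38% of all genes. The 40 ribosome biogenesis genes, nucleolar factors such as Ncl, Npm1 and Fbl, were lower as a sum in 9 of 11 classes, with ratios from 0.780 in macrophages to 1.30 in basophils. Of these genes 5 of 40 were past 1.5-fold lower in CD8 T cells, where 8.38% of all genes were, 6 of 40 in NK cells against 3.43% of all genes, and 8 of 40 in macrophages against 5.52%. In classical monocytes it was 0 of 40, against 3.6%, and in the other 7 classes at most 2 genes were past it in each direction. The 78 mitochondrial ribosomal protein genes, which build another ribosome, were lower as a sum in 10 of 11 classes with ratios from 0.782 to 1.16. Of these, 16 of 78 were past 1.5-fold lower in CD8 T cells, against 8.38% of all genes, and 11 of 73 in cDC2, against 4.37%. It was 8 of 59 in other CD4 T cells, against 4.56%, and 7 of 58 in mature DC, against 6.53%. Gamma-delta T cells had 5 of 43, against 4.49%, and nonclassical monocytes 4 of 73, against 2.29%. Treg had 3 of 70, against 4.25%, and basophils 0 of 2, against 6.85%. In NK cells and macrophages it was 3 of 78 each, against 3.43% and 5.52%, and in classical monocytes 0 of 78, against 3.6%. Past 1.5-fold higher were 2 of 70 in Treg, against 6.33% of all genes, and 2 of 58 in mature DC, against 13.2%. Other CD4 T cells had 1 of 59 higher, against 10.8%, and gamma-delta T cells 1 of 43, against 7.27%. The other classes had none higher. The 13 mitochondrially encoded genes were lower in 3 and higher in 8 classes, with the counting interval below 1 in 2 classes and above 1 in 6. In basophils 4 of the biogenesis genes reached 50 UMIs, so their value rests on few genes. The summed TOP list thus stood on the same side of 1 as the members in each class, and the mitochondrially encoded genes did so in 3. For the TOP list the counting interval in cDC2 included 1, as did that of the mitochondrially encoded genes in gamma-delta T cells.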

How the data were processed

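The deposited files are counts of UMIs per gene and barcode, for which the submitters' processing notes name Cell Ranger 7.0.0, Seurat and mm10. Strand use, read end and the authors' filters are not given in the sources used here. Members and gene lists were chosen with earlier results of these data known, and gate cuts were set after the values were seen. A barcode was kept if it had 200 genes or more, 500 UMIs or more and a mitochondrial share under 10%. The doublet caller scrublet, run through scanpy 1.11.5, marked 1 barcode per library at its own threshold, which is under 0.5%, so the barcodes with the highest scores were removed instead, at 0.8% per 1000 barcodes (418 and 484). Cells were assigned to classes by summed marker UMIs per 10000, and cells in several gates (43 and 79) or in none entered no class. Classes were rebuilt from markers, not from an annotation by the authors.

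UMIs were summed per class and library. Shares have exact Clopper-Pearson intervals and ratios exact conditional binomial intervals at 95%, checked on simulated data. UMIs are molecules, and the intervals cover counting error only. No test was made, since each group is 1 library. Named members are the 5 with the most and the 5 with the fewest UMIs, the paralogs, Rps19bp1, the stalk, Rpsa, the 5 that varied most across classes, and in each of the 6 largest classes the 3 furthest above and below the module's ratio. Members named for passing 1.5-fold or for their direction in every class were chosen after their values were seen. Alternatives changed the cell weights, denominator, gate cuts, mitochondrial limit, doublets, depth, cycling cells, scaling, count minimum and fold. Leaving out cells with HSP70 or neutrophil marker UMIs was added after seeing the data. Coordinates are those of GENCODE M21 on GRCm38, and start windows are RefSeq promoters on GRCm38.p6. Python 3.11.15, numpy 2.4.6, scipy 1.17.1 and matplotlib 3.10.9 were used. Values of a few genes that the naming rule or the gene lists would give are not reported here.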

Additional observations from a re-analysis of the deposited data

Results flagged for a closer look

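Rpl3, a protein near the peptidyl transferase centre, had ratios on opposite sides of 1 in classes of the same libraries. It was 1.468 in basophils (267 and 392 CPM, from 133 and 123 UMIs) and 0.7214 in macrophages (1063 and 767 CPM). The difference between the classes was not tested. Rpl9-ps1, a pseudogene symbol left out of the members, had 0.3269 CPM over all barcodes of the UDSP-Hep library and 0.09373 CPM in the PBS library, from 21 and 7 UMIs.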

How the results depend on the processing

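The summed share was lower in UDSP-Hep in 11 of 11 classes under each alternative of weights, denominator, gates, filters, doublets, depth and cycling, and without cells with neutrophil marker UMIs. In the last of these alternatives, mature DC and basophils fell below 50 cells in a library. Without cells with HSP70 UMIs the number was 10 of 11, the cDC2 ratio becoming 1.03. Class ratios ranged over the alternatives from 0.802 to 0.904 in macrophages, 0.884 to 0.900 in NK cells and 0.903 to 0.961 in CD8 T cells. The 14 members past the fold became 24 with median-of-ratios scaling, 159 at a lower fold (9 higher and 150 lower), 29 in cells of 2000 to 10000 UMIs and 26 without cells with neutrophil marker UMIs; the cause was not tested, except that a lower fold takes in more members by construction. Median-of-ratios scaling shifted the median gene by 0.01 to 0.13 on the log2 scale, and relative to it the class share ratios were 0.792 to 0.948. Without cycling cells the CD8 T ratio of Rps27l was 1.06 and that of Rps27 1.05. Of 37 recomputed counts over classes or genes, 33 stayed within 1.5 times the reported count and the 4 named above did not. A further count also moved beyond 1.5 times. The 19 members with a lower share of member UMIs in every class became 11 in cells of 2000 to 10000 UMIs. Of the single values, 312 stayed within their counting interval, 359 moved outside it and 1, the cDC2 ratio above, changed direction. No paired analysis was possible because each group is 1 library. Depth limits Rpl39l, Rpl3l and all neutrophil values.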
